A study of Mus musculus with 3 samples.

Results

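Epithelial cells line the airways and the alveoli, the gas-exchange sacs of the lung, and a small number of them came away with the immune cells when mouse lungs were washed. They were picked from droplet single-cell RNA data by a rule on 9 genes. A barcode, which stands for 1 droplet and ideally 1 cell, was kept with at least 500 unique molecular identifiers (UMIs, 1 per captured RNA molecule), at least 300 genes and at most 10% mitochondrial UMIs. It counted as epithelial when Krt8, Krt18, Cldn3, Cldn4, Cldn7, Cldn18, Foxj1, Tmem212 and Rsph1 together gave at least 3 UMIs and at least 0.1% of its UMIs. Krt8 and Krt18 are keratins of simple epithelia, the 4 claudins are tight junction proteins, Foxj1 is the transcription factor of motile cilia, and Tmem212 and Rsph1 are genes of ciliated cells. The rule found 66 epithelial barcodes among 12297 kept barcodes. The levels of these 9 genes chose the barcodes, so they are a description here and support nothing.

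The mice were wild-type C57BL/6J animals of 12 weeks. They breathed filtered air, ozone at 1 ppm or ozone at 1.5 ppm for 3 hours, and the right lung lobes were lavaged 22 to 24 hours later with the left bronchus tied off. Cells of 3 to 4 mice were pooled per group, each group is 1 library, and no barcode can be traced to its mouse. With no replicate library, no test was made between groups, and each interval below is a 95% interval of counting error only. Ozone is an irritant oxidant gas. The labels describe the sample as lavage immune cells, so epithelial cells were not what was collected for, and whether a cell had detached in the living lung or was freed by the lavage cannot be told apart.

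Club cells are the secretory cells of the small airways. They release secretoglobins such as Scgb1a1 and detoxify inhaled chemicals with enzymes such as Cyp2f2, and they act as progenitors after injury. Mucosal secretory cells of the larger airways add defence proteins such as Bpifa1, which coats the airway surface, and Reg3g, a lectin that acts on bacteria. Ciliated cells move the mucus layer. Alveolar type 2 cells make surfactant, with Sftpc and Sftpa1 among its proteins, and can give rise to the thin alveolar type 1 cells that carry gas exchange, marked by Ager, Hopx, Aqp5 and the claudin Cldn18. After injury, epithelial cells in transition between these types are known to show high Krt8, Sfn, Cldn4 and Cdkn1a.

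The promoters of 5 genes of lung epithelium named below are shown. NKX2-1 and the forkhead proteins, lineage factors of that tissue, are known to act at genes of this kind. Each is 300 bases, from 250 before to 50 after the annotated start, 5′ to 3′ on the gene's strand, from RefSeq on build GRCm38.p6, an earlier build than that of the counts. Of 18 genes looked up, 14 had an entry, and Foxj1, Rsph1, Scgb1a1 and Sftpc did not. The 5 shown were picked by hand from those 14. Matches in the rest are not given, so no pattern over lineages can be read from these 5. Capitals mark exact matches on either strand to CTCAAG, a core bound by NKX2-1, or to the forkhead cores TGTTTGC and TGTTTAC.
Bpifa1, chr2:154142630-154142929, plus strand: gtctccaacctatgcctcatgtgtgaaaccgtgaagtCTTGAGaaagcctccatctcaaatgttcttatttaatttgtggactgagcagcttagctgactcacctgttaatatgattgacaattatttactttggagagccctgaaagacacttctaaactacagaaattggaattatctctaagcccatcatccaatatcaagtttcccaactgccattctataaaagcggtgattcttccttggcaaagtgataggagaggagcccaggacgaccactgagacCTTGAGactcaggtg
Scgb3a1, chr11:49663345-49663644, plus strand: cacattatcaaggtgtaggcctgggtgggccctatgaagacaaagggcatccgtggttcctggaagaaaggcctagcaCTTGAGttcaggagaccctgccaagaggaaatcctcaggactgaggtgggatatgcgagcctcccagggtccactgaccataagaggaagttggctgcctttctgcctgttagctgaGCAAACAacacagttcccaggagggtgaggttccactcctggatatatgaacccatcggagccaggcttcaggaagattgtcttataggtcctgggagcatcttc
Reg3g, chr6:78468825-78469124, minus strand: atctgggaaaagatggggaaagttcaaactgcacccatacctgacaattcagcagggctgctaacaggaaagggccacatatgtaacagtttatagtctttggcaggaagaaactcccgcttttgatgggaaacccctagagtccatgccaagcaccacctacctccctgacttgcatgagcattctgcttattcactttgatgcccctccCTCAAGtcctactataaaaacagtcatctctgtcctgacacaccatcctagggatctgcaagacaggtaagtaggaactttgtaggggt
Sftpa1, chr14:41131538-41131837, plus strand: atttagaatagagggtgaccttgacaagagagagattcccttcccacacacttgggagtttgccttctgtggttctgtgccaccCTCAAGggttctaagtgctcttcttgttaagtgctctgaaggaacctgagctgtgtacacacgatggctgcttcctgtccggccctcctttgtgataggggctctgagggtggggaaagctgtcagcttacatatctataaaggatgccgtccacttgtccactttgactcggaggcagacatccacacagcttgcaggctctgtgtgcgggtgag
Cldn18, chr9:99717218-99717517, minus strand: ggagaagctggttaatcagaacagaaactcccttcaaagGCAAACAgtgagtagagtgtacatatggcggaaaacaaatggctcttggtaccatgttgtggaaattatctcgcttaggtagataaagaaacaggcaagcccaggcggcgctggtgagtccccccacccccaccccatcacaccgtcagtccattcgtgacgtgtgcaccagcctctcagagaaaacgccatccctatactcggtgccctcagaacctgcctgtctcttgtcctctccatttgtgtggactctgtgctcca
The letters CTCAAG stand in 15.9% of all 32851 promoters of this length, TGTTTGC in 5.07% and TGTTTAC in 3.65%, so these matches are common and are a description, not sites. TGTTTAC matched none of the 5 windows.

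The question put to the data was how many epithelial barcodes each exposure yielded and of which kind. There were 8 of 3479 kept barcodes after filtered air, 0.230% (exact binomial interval 0.0993 to 0.453%). There were 2 of 2241 after 1 ppm ozone, 0.0892% (0.0108 to 0.322%), and 56 of 6577 after 1.5 ppm ozone, 0.851% (0.644 to 1.10%). By this rule the interval of the 1.5 ppm library lay above those of both other libraries, and the intervals of the air and 1 ppm libraries overlapped. With every barcode thinned to 500 UMIs and chosen by 1 UMI of the 9 genes, the shares were 0.489% (0.285 to 0.781%), 0.357% (0.154 to 0.702%) and 0.775% (0.578 to 1.02%) in the air, 1 ppm and 1.5 ppm libraries, and all 3 intervals overlapped. A share is taken of all kept barcodes, so more epithelial cells and fewer immune cells in a pool cannot be told apart. No epithelial barcode was shared between libraries, while pairs of libraries shared 1 to 7 kept barcodes.

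The rule left a thin margin. With less than 0.15% from the 9 genes there were 2, 0 and 11 epithelial barcodes in the air, 1 ppm and 1.5 ppm libraries, and with 3 or 4 such UMIs there were 1, 1 and 7. Just outside, 1, 1 and 10 kept barcodes had at least 3 such UMIs but under 0.1%, the highest at 0.0963%. A further 2, 1 and 8 had exactly 2 UMIs at 0.1% or more. Epithelial barcodes were shallower than the rest in every library, at medians of 4836, 967 and 9301 UMIs, against 13666, 15751 and 11996 in the other kept barcodes. Their median mitochondrial share was 0.254%, 0.446% and 1.70%, against 4.08%, 3.93% and 2.24%.

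**Figure D1:**
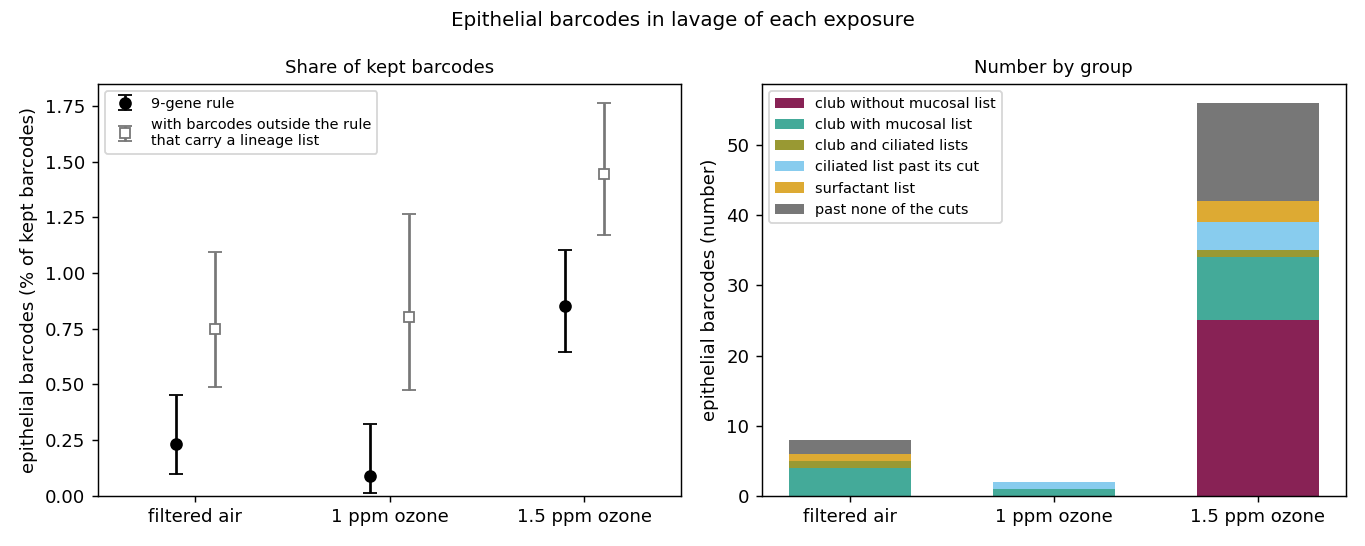
Left, epithelial barcodes as a percentage of kept barcodes by library, with exact binomial 95% intervals of counting error, for the 9-gene rule (filled) and with barcodes outside it that carry a lineage list (open). Right, number of epithelial barcodes by group; the bar of 56 after 1.5 ppm holds 25 club barcodes without the mucosal list, and neither of the other libraries has one.

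The epithelial part of the label held against the data, while whether the cells had been shed cannot be told, as said above. The 18-gene alveolar macrophage list made a median of 0.366%, 0.837% and 0.0865% of UMIs in epithelial barcodes of the air, 1 ppm and 1.5 ppm libraries, against 2.43%, 2.73% and 2.03% in the other kept barcodes. Only 3 of the 66, all after 1.5 ppm, reached the median that the list had in the other barcodes of their library. The lists of neutrophils, T cells, B cells and dendritic cells were carried by 0 of the 66, where to carry a list means at least 3 UMIs and at least 0.1% of UMIs from it, selecting genes left out. The exact interval of 0 of 66 reaches 5.44%. Of the other kept barcodes, 2.04%, 0.908%, 0.00818% and 0.744% carried these lists. Those shares lie within the interval, so 0 of 66 does not set the epithelial barcodes apart. The endothelial and stromal list and the list of rare airway cells (neuroendocrine, ionocyte and tuft) were carried by 0 as well, against 0.0409% and 0% of the others. By the same measure the macrophage list was carried by 35 of the 66, against 99.1% of the other kept barcodes. These were 7 of 8, 2 of 2 and 26 of 56 in the air, 1 ppm and 1.5 ppm libraries. Among the label's markers outside the 9 genes, Scgb1a1 was in 49 of 66 barcodes, Hopx in 30 and Sftpa1 in 32. Other kept barcodes held Scgb1a1 too, in the shares given below. Those of Hopx and Sftpa1 are not given, so these counts alone do not set the epithelial barcodes apart. A broad list of epithelial genes such as Cd9 and Spint2 did not separate the cells, since 96.7%, 98.4% and 94.7% of the other barcodes carried it too.

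Of the lineage lists, those of club genes and of transitional epithelial genes were carried most often, each by 52 of 66 epithelial barcodes. The club list was carried by 6 of 8, 1 of 2 and 45 of 56 epithelial barcodes in the air, 1 ppm and 1.5 ppm libraries, against 0.634%, 1.07% and 1.13% of the other kept barcodes. The mucosal secretory list was carried by 4, 1 and 11 barcodes, the ciliated list by 2, 1 and 10, the alveolar type 1 list by 4, 1 and 31, and the type 2 list by 2, 0 and 18. Of the other kept barcodes 0.432%, 0.581% and 0.659% carried the mucosal list, and 0.346%, 0.179% and 0.353% the ciliated list. The type 1 list was carried by 0.144%, 0.0893% and 0.138% of them, and the type 2 list by 0.259%, 0.402% and 0.291%. The list of transitional epithelial genes, among them Sfn, Clu, Nupr1 and Cdkn1a, was carried by 5, 1 and 46, with 5.01%, 4.51% and 9.81% in the other barcodes. A barcode may carry several lists. RNA of secretory genes was found outside the epithelial barcodes too, and Scgb1a1 had a UMI in 34.9%, 32.2% and 18.6% of the other barcodes, at 54.9, 144 and 198 CPM (UMIs per 1000000 summed UMIs). In epithelial barcodes it stood at 100182, 64149 and 151253 CPM.

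The 66 barcodes were put into 6 groups by cuts on the club, mucosal, ciliated and type 2 lists. The cuts were chosen after the values were seen, and lay in wide gaps for the club list (cut at 2% of UMIs; 4.72% in the lowest barcode above and 1.21% in the highest below) and the type 2 list (cut at 2%; 5.3% and 1.31%). The gap was narrow for the ciliated list (cut at 0.4%; 0.488% and 0.341%). Among barcodes past the club cut alone the mucosal list was at 1.48% or more, or at 0.0202% or less, with 0 barcodes near the cut of 0.1%. In the order air, 1 ppm, 1.5 ppm there were 0, 0 and 25 club barcodes without the mucosal list, 4, 1 and 9 with it, and 1, 0 and 1 with both club and ciliated lists. There were 0, 1 and 4 barcodes past the ciliated cut alone, 1, 0 and 3 surfactant barcodes past the type 2 cut, and 2, 0 and 14 past none of the cuts. Genes that drew these groups are given as a description.

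**Figure D2:**
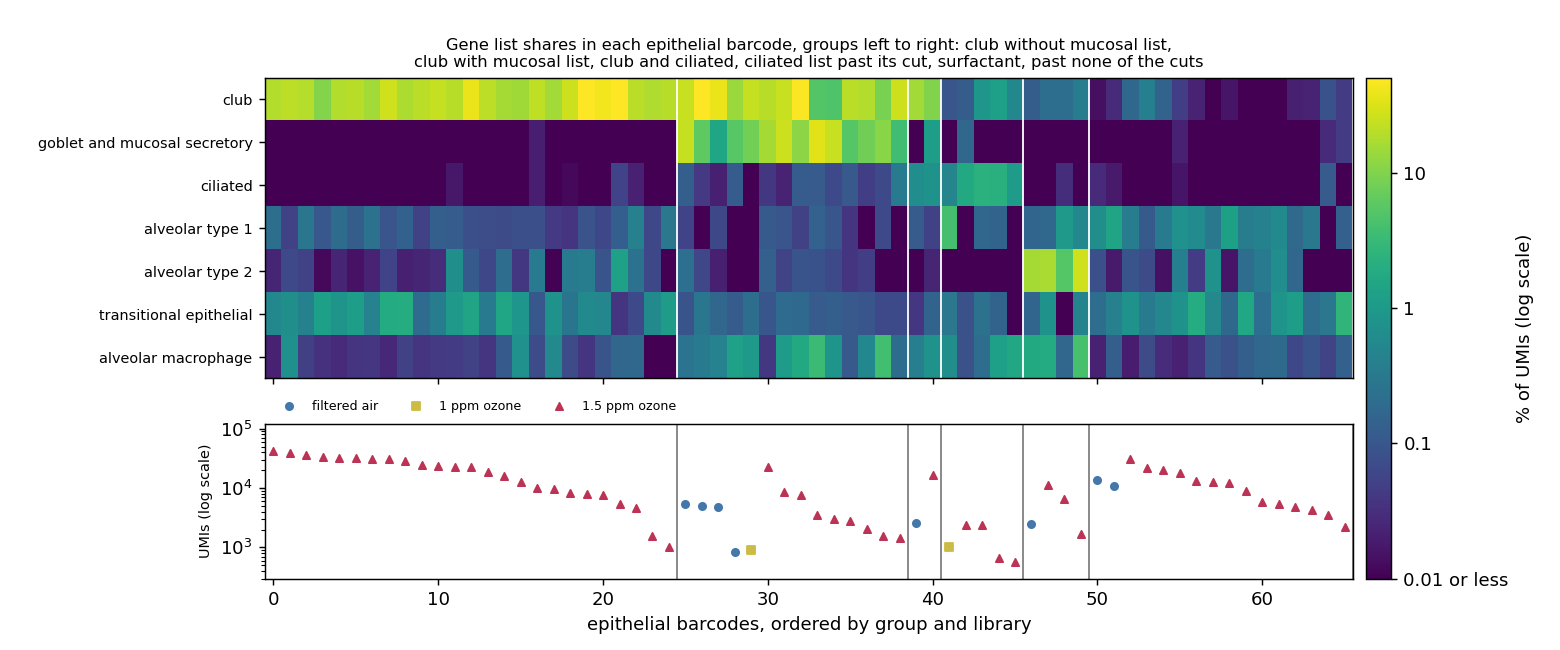
Top, share of UMIs from 7 gene lists (colour, log scale) in each of the 66 epithelial barcodes, in columns by group and library; white lines separate the groups. Bottom, total UMIs of the same barcodes on a log axis, coloured by library. The first 25 columns, all after 1.5 ppm ozone, have a high club list and almost no mucosal list, and the macrophage list is low in most columns.

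The mucosal secretory barcodes came from all 3 libraries. They were 0.115% of kept barcodes after filtered air (interval 0.0313 to 0.294%), 0.0446% after 1 ppm (0.00113 to 0.248%) and 0.137% after 1.5 ppm (0.0626 to 0.260%), and these intervals overlapped. Each of the 14 barcodes had UMIs of Bpifa1, Reg3g and the secretoglobins Scgb3a1 and Scgb3a2, and 13 had Scgb1a1. Bpifa1 summed to 1423 UMIs in the 4 air barcodes (27 to 1221 per barcode), 52 in the 1 ppm barcode and 6779 in the 9 barcodes after 1.5 ppm (1 to 2992). Scaled to depth that was 89491, 57206 and 127145 CPM. Bpifa1 was high in every library's secretory barcodes, and its UMI counts in single barcodes spread over orders of magnitude within a library.

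Other genes of these barcodes were Wfdc2 at 19222 CPM over the 3 libraries, a secreted protease-inhibitor-like protein, and Lypd2 at 3094 CPM. The iron-binding antimicrobial Ltf also stood at 3094 CPM, the mucin Muc5b at 913 CPM and Agr2, which folds mucins, at 1127 CPM. The naphthalene-metabolising enzyme Cyp2f2 was at 6317 CPM in 13 of 14 barcodes. Cyp2a5 was at 1911 CPM and the carbonyl reductase Cbr2 at 4406 CPM. The 14 barcodes were small, with a median of 3262 UMIs and 1002 genes. Their median mitochondrial share was 0.127%, and the nuclear RNA Malat1 had a UMI in 7 of 14. Whether their size bears on the values below was not tested.

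Between the 9 mucosal secretory barcodes after 1.5 ppm and the 4 after air, 320 genes had at least 20 UMIs in both sums together. Of these, 19.4% stood 2-fold or more above air after 1.5 ppm and 6.88% 2-fold or more below it, with ratios taken after adding 1 UMI to each sum and a median log2 ratio of -0.11. Reg3g was at 33929 CPM after 1.5 ppm (1809 UMIs, 21 to 922 per barcode) and at 9245 CPM after air (147 UMIs, 2 to 117), a ratio of 3.67 (counting interval 3.1 to 4.37). The single-barcode UMI counts of Reg3g overlapped between the 2 libraries. Wfdc2 was 3.01-fold higher (2.49 to 3.66), Cyp2f2 2.06-fold higher (1.55 to 2.78) and Muc5b 6.06-fold higher (1.98 to 30.2), the last on 61 and 3 UMIs. Scgb1a1 was at 137630 CPM after 1.5 ppm and 261493 CPM after air, a ratio of 0.53, and Scgb3a1 stood at 46496 and 46161 CPM. Single barcodes held 0 to 2930 UMIs of Scgb1a1 after 1.5 ppm and 80 to 1841 after air. The lowest after 1.5 ppm had 0, 3 and 4, at most 0.196% of their UMIs, and the next had 7.57%. The ratio of the sums is thus not a shift seen in each barcode.

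Of the club list 2 of 11 measured genes were at least 2-fold higher and 0 lower in that comparison, and of the mucosal list 4 of 8 and 0. Both lists drew this group in each library, so these counts and the ratios of their genes are a description. Heat shock genes were at least 2-fold higher in 5 of 7 measured, with a median log2 ratio of 1.27. Among them Hsp90aa1 had 54 UMIs after 1.5 ppm and 3 after air, and Hspa8 72 and 8. One barcode after 1.5 ppm held 22762 of the 53317 UMIs summed there, and 183 of the 190 Malat1 UMIs. Without it 26 of 213 genes were 2-fold or more higher and 9 lower, and the ratio was 5.22 for Reg3g, 2.29 for Wfdc2, 7.46 for Muc5b and 1.37 for Cyp2f2 (0.998 to 1.89), which was then no longer 2-fold higher. Mucosal genes were then higher in 2 of 7 measured and lower in 0 (median 0.52), heat shock genes higher in 2 and lower in 1 of 4, and club genes higher in 0 and lower in 1 of 9. Lyz2, a lysozyme made by macrophages and by some epithelial cells, was at 7615 CPM after 1.5 ppm and 2138 CPM after air. The macrophage list was at a median of 0.815% and 0.394% of UMIs in these barcodes, and its part in the ratios was not tested.

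**Figure D3:**
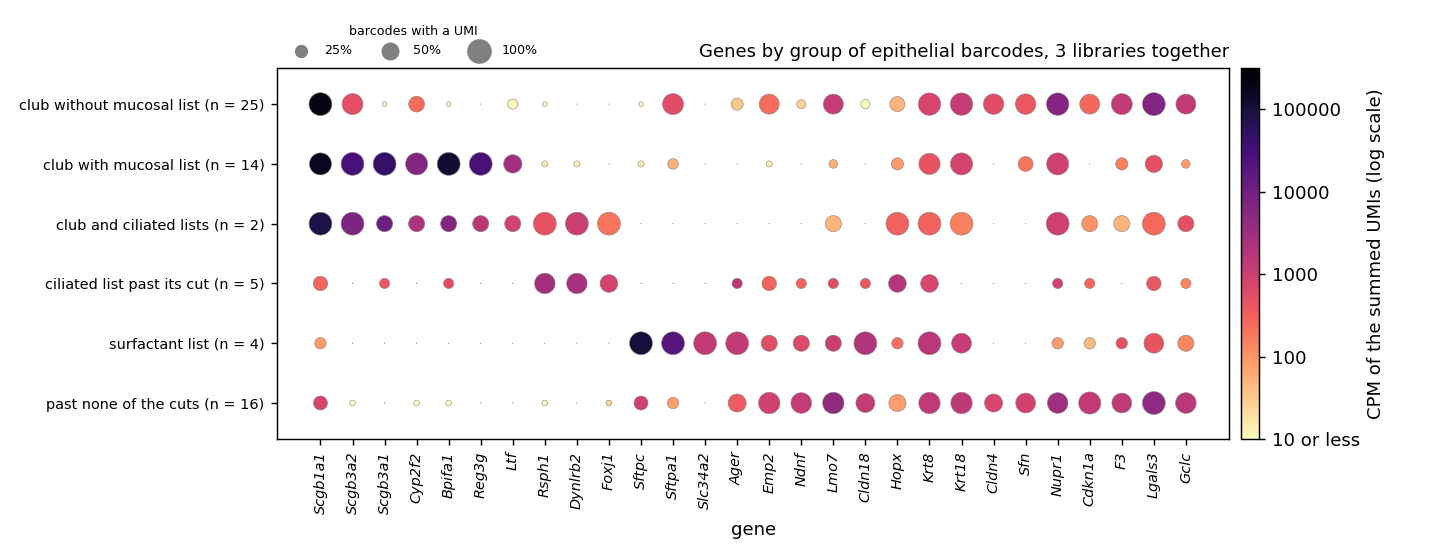
Level (colour, CPM of summed UMIs on a log scale) and share of barcodes with a UMI (point size) for 28 genes, chosen from the named genes and after their values were seen, in the 6 groups of epithelial barcodes with the 3 libraries together. The mucosal genes Bpifa1 and Reg3g, the ciliated genes Rsph1 and Dynlrb2 and the surfactant genes Sftpc and Sftpa1 are highest in the rows of their groups, and Krt8, which helped to select the barcodes, has UMIs in all 6 rows.

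The 25 club barcodes without the mucosal list came only from the 1.5 ppm library, where they were 0.380% of kept barcodes (0.246 to 0.561%) and the most numerous group. In the other libraries 0 of 3479 and 0 of 2241 were found, and the exact intervals reach 0.106% after air and 0.164% after 1 ppm. Under the wider definition given at the end, barcodes with the club list and without the mucosal list were found in all 3 libraries. The barcodes that it adds were shallow, and whether they are like these 25 was not tested. Those chosen by the 9 genes were deep, with a median of 22536 UMIs (1035 to 41281) and 3890 genes, and 2.47% mitochondrial UMIs. Scgb1a1 was their leading gene, with 106316 UMIs, 208 to 8637 per barcode, or 212238 CPM. The club list summed to 107243 UMIs, nearly all of them Scgb1a1, so club names the list cut and not the cell type of these barcodes. The macrophage list made a median of 0.0436% of their UMIs and at most 0.748%, against 2.03% in the other barcodes of that library.

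In these 25 barcodes Bpifa1 had 1 UMI in all and Reg3g 0, among 500929 UMIs. The other kept barcodes of the same library held Bpifa1 at 81.9 CPM and Reg3g at 32.0 CPM. With every barcode thinned to 500 UMIs, a mucosal list UMI was found in 1 of these 25 and in 14 of 14 with the list. Cyp2f2 had 125 UMIs, found in 12 of 25 barcodes (0 to 30 per barcode), and Scgb3a2 259 UMIs in 21 barcodes. Very high Scgb1a1 thus stood beside low levels of other club genes. They also held Sftpa1 in 21 of 25 barcodes, at 555 CPM, against 2.36 CPM in the other barcodes of the library. Sftpb, another surfactant protein gene, was in 14 of 25.

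The club barcodes without and with the mucosal list were compared within the 1.5 ppm library, 25 against 9. The groups were drawn by that list, so its 8 genes, all lower without it, are no result. Among 3617 genes with at least 20 UMIs, 30.1% were 2-fold or more higher without it and 9.95% 2-fold or more lower, with a median log2 ratio of 0.35. Of those genes 612 were at 0 in 1 of the sums, and with these set at the limit of 3 counts 552 genes were at least 2-fold higher and 360 lower. Leaving out the barcode of 22762 UMIs from those with the list gave 843 higher and 437 lower of 3492, or 293 and 795 at that limit, with medians of 0.36 and -0.45. Genes at 0 with the list can count as lower at that limit, so 795 is not a count of genes measured lower. Cells of 1 library are not replicates, so these counts describe barcodes of 1 pool. The macrophage list made a median of 0.0436% of UMIs without and 0.815% with the mucosal list, and its part in these ratios was not tested.

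Detoxifying enzymes stood on the lower side. Of the club list, 11 of 12 measured genes were at least 2-fold lower and 0 higher, with a median log2 ratio of -4.02. The exception was Scgb1a1, at 212238 CPM without and 137630 CPM with the mucosal list. In single barcodes with the list it ran from 0 to 2930 UMIs. Of the xenobiotic metabolism list, which shares several genes with it, 14 of 16 were lower and 0 higher, with a median of -3.75. Cyp2f2 was at 250 CPM against 7258 CPM, a log2 ratio of -4.85. Cyp2a5 had 8 against 108 UMIs, and the sulfotransferase Sult1d1 was at 7.99 against 863 CPM. Cyp2b10 and Gstp1 stayed within 2-fold. Without the barcode of 22762 UMIs, 9 of 10 club genes and 9 of 12 xenobiotic genes were lower, with medians of -3.84 and -3.07, and 0 were higher.

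Transitional epithelial genes were on the higher side, in 9 of 11 measured and 0 lower, with a median log2 ratio of 1.79. With the 4 genes at 0 set at the limit, 8 of 11 were higher and the median was 1.77. Without the barcode of 22762 UMIs 8 of 11 were higher, or 5 of 11 at that limit, with medians of 1.99 and 0.96. Nupr1, a stress-induced chromatin protein, was at 6135 CPM without and 731 CPM with the mucosal list, a ratio of 8.39 (6.12 to 11.8). Clu, a secreted chaperone, was 3.25-fold higher (1.84 to 6.34). Cdkn1a, an inhibitor of the cell cycle, had 136 UMIs in 19 of 25 barcodes and 0 in the 9 others, at least 4.83-fold higher against 3 counts. Tnip3, which damps NF-kappaB signalling, was at least 3.90-fold higher and Ndrg1 at least 3.41-fold. Without that barcode Clu was 5.58-fold higher and the lower bounds were 2.77 for Cdkn1a, 2.24 for Tnip3 and 1.95 for Ndrg1.

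Glutathione and thioredoxin genes lay on both sides. Of the Nrf2 antioxidant list 10 of 19 measured genes were at least 2-fold higher and 4 lower, with a median log2 ratio of 1.16, or 7 and 4 with a median of 0.55 at the limit for genes at 0. Without the barcode of 22762 UMIs 9 were higher and 4 lower. At that limit, where genes at 0 with the mucosal list can count as lower, these were 6 and 5, with a median of -0.23. Gclc, the catalytic subunit of glutathione synthesis, was at 1296 CPM without and 93.8 CPM with the mucosal list, a ratio of 13.8 (5.89 to 42.7). Its partner Gclm had 269 UMIs without and 1 with the list (ratio 28.6, 5.10 to 1135). Txnrd1 was 8.37-fold higher (2.83 to 40.9), while the transferase Gsto1 was at 323 against 3451 CPM and Gstm1 at 112 against 375 CPM. Without that barcode Gclc was at 0 in the others, at least 13.2-fold higher against 3 counts, and Txnrd1 was 4.80-fold higher (1.62 to 23.4).

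Of the p53 and growth arrest list 7 of 9 were higher and 0 lower (median 1.52), but 4 of 9 at the limit for genes at 0 (median 0.51). Immediate early genes were higher in 8 of 11 (median 1.38), and in 5 of 11 at that limit (median 0.35). Junction genes were higher in 9 of 13 and lower in 1 (median 1.33), and higher in 4 and lower in 1 at that limit. Without the barcode of 22762 UMIs these became 4 of 9, 5 of 11 and 7 of 12 higher, with list medians of 0.77, 0.96 and 1.08. At the limit, which can place genes at 0 with the mucosal list too low, the medians were -0.30, -0.04 and -0.20. The direction of these lists thus depended on how genes at 0 were placed. Among single genes Lgals3, a galectin that macrophages also make, was at 6570 against 469 CPM (counting interval of the ratio 9.47 to 21.7, or 15.4 to 91.2 without that barcode). Lmo7, an actin and junction-linked protein, was at 1206 against 56.3 CPM, and F3, the tissue factor that starts coagulation, at 1324 against 206 CPM. Atxn1 had 313 UMIs against 0, at least 11.1-fold higher (6.36-fold without that barcode), and Cldn4, a selecting gene, 281 against 0. Malat1 was at 30328 against 3564 CPM, so this nuclear RNA differed along with these genes, and its part in them was not tested.

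**Figure D4:**
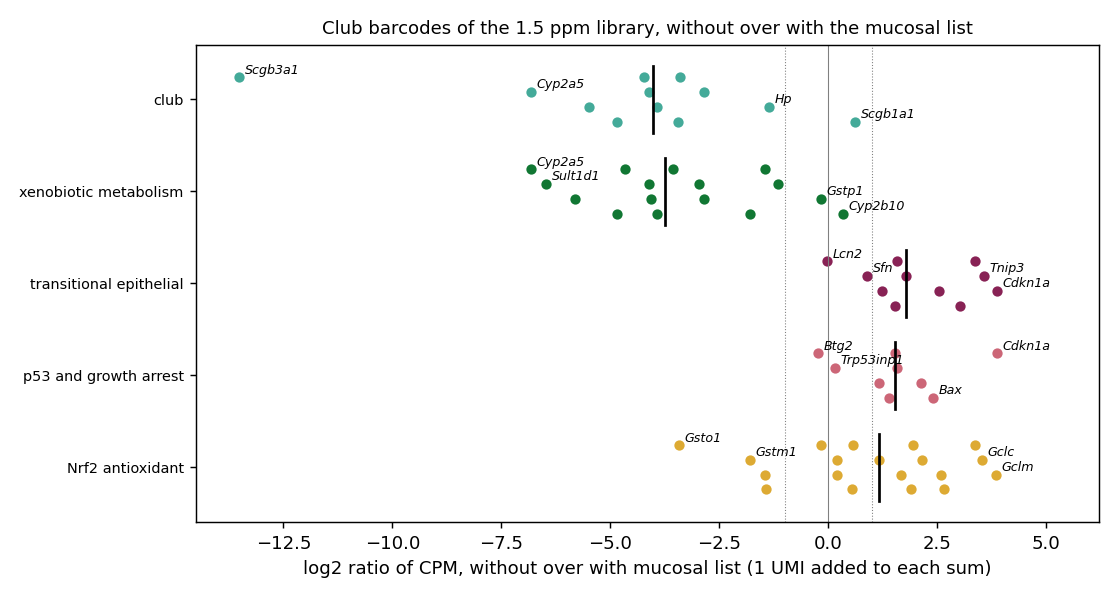
Log2 ratio of CPM without over with the mucosal list, after adding 1 UMI to each sum, for each measured gene of 5 lists in club barcodes of the 1.5 ppm library (25 and 9 barcodes); black bars are list medians and dotted lines mark 2-fold. Club and xenobiotic genes lie left of 0 except Scgb1a1 and Cyp2b10, and most transitional and p53 genes lie right of it; genes at 0 in one sum are placed by the added UMI.

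The ciliated list was past its cut in 7 barcodes, of which 2 were past the club cut too and held more club than ciliated UMIs. In the 5 others it held 5 UMIs in the 1 ppm barcode and 6 to 55 in the 4 after 1.5 ppm. Over those 5 barcodes Rsph1, a radial spoke protein and a selecting gene, was at 2838 CPM. Dynlrb2, a dynein light chain, was at 2554 CPM, and Ccdc153 and Mlf1 were both at 1987 CPM. Scgb1a1 had 2 UMIs in all in these 5 barcodes. The 1 ppm barcode, of 1024 UMIs, was unlike the rest, since it held 42 UMIs of the type 1 list, with 11 of Ager and 9 of Hopx. It sat just above the ciliated cut, and by its UMIs the type 1 list was the larger of both. The 2 barcodes with both lists had 134 ciliated UMIs beside 1210 of Scgb1a1 after 1.5 ppm, and 17 beside 398 after air. Whether they were 1 cell or 2 in a droplet was not tested.

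Surfactant genes led in 4 barcodes, 1 after air and 3 after 1.5 ppm. Sftpc had 326 UMIs in the air barcode and 273, 1370 and 321 in the others, 105316 CPM over the 4. Sftpa1 was at 19132 CPM, Sftpb at 5703 CPM and the chemokine Cxcl15 at 4323 CPM. The lamellar body protein Lamp3 was at 920 CPM, the phosphate transporter Slc34a2 at 1334 CPM and the protease Napsa, which processes Sftpb, at 1702 CPM, each in 4 of 4. Slc34a2 was at 0 in every other group. Ager had a UMI in 4 of 4 as well, and Cldn18, a selecting gene, was at 2070 CPM. The macrophage list made a median of 1.81% and up to 4.13% of their UMIs, the highest of the groups by median, and Lyz2, also a type 2 cell gene in mice, was at 14257 CPM. Its share from macrophages was not tested.

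The 16 barcodes past none of the cuts were mixed and are given no cell type name. The transitional list was carried by 16 of them and stood at 7026 CPM, the type 1 list by 15 at 5155 CPM and the type 2 list by 6 at 1690 CPM. One of them had 0 and another 3 UMIs of the type 1 list. Lmo7 was at 4387 CPM in 14 of 16, Ndnf, a secreted factor, at 1282 CPM in 13, and the membrane protein Emp2 at 885 CPM in 14. The water channel Aqp5 was at 583 CPM in 13 and the receptor Ager at 360 CPM in 10. Hopx, a marker in the label, was sparse, at 84.8 CPM in 9 barcodes. The chloride channel family gene Clic5 was at 445 CPM in 8. Cdkn1a was at 1288 CPM in 15 of 16, Sfn at 874 CPM in 12 and Nupr1 at 3089 CPM in 13. They were 0.0575% of kept barcodes after air (0.00696 to 0.208%) and 0.213% after 1.5 ppm (0.116 to 0.357%), with overlapping intervals. After 1 ppm there were 0 of 2241, and the exact interval reaches 0.164%.

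Among the barcodes past none of the cuts, 14 after 1.5 ppm were set against 2 after air. Of 1950 genes, 16.8% were 2-fold or more higher after 1.5 ppm and 18.2% 2-fold or more lower, with a median log2 ratio of -0.00. With 116 genes at 0 in 1 of the sums set at the limit of 3 counts, 227 were higher and 354 lower. Of the type 1 list 6 of 9 measured genes were at least 2-fold lower and 1 higher, with a median of -1.77. Ager was at 268 CPM after 1.5 ppm (44 UMIs, 0 to 14 per barcode) and 977 CPM after air (8 and 16 UMIs), a ratio of 0.27 (0.16 to 0.47). Both air barcodes had UMIs of Ager, and 8 of the 14 after 1.5 ppm did. Ndnf was at 968 and 3380 CPM, Clic5 at 341 and 1140 CPM, and Aqp5 at 439 and 1548 CPM. Emp2, at 841 and 1181 CPM, stayed within 2-fold. The 2 air barcodes differed: without the deeper one 5 of 8 measured type 1 genes were lower (median -1.90), and without the shallower one 3 of 7 (median -0.35). Over all genes 438 of 1756 were lower and 313 higher in the first case (median -0.21), and 398 of 1817 and 343 in the second (median -0.10). Ager had ratios of 0.36 and 0.23 in those cases and Ndnf of 0.19 and 0.48, while Aqp5 had 0.14 and 1.22 and Clic5 0.19 and 0.53.

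Nupr1 was at 3539 CPM after 1.5 ppm, in 12 of 14 barcodes, and 81.5 CPM after air (2 UMIs), a ratio of 43.4 (12.0 to 360). Lgals3 was 3.90-fold higher (2.77 to 5.66), and 3.84 and 3.94-fold against either air barcode alone. The phospholipid-binding Anxa1 was 4.35-fold higher (2.40 to 8.80), and 2.60 and 9.02-fold. Areg, an EGF receptor ligand, had 99 UMIs in 9 barcodes and 0 after air, at least 4.94-fold higher against 3 counts. S100a14 was at least 5.78-fold higher and Cldn4 at least 6.73-fold. Cldn4 is a selecting gene, so its values are a description. Against the shallower and the deeper air barcode alone these bounds were 2.14 and 2.79 for Areg, 2.51 and 3.27 for S100a14, and 2.92 and 3.81 for Cldn4. Nupr1 was at least 12.6-fold higher than in the shallower one, which had 0 UMIs, and 24.6-fold higher (6.77 to 203) than in the deeper one. Cdkn1a was at 1316 and 1100 CPM, and Krt8, also a selecting gene, at 1450 and 1059 CPM. Malat1 was at 38275 and 102264 CPM, and its part in the other ratios was not tested. With 2 air barcodes, a difference between those 2 cells and the rest cannot be told apart from one between the pools.

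Summed over all epithelial barcodes, the ratios below mix the shares of the groups with levels within them. Club barcodes without the mucosal list were 0 of 8 after air (0 to 36.9%) and 25 of 56 after 1.5 ppm (31.3 to 58.5%). Those with it were 4 of 8 (15.7 to 84.3%) and 9 of 56 (7.62 to 28.3%), and in both cases the intervals overlapped. Of 5364 genes, 8.95% were 2-fold or more higher in 56 barcodes after 1.5 ppm than in 8 after air, and 25.4% 2-fold or more lower, with a median log2 ratio of -0.38. Scaling by median-of-ratios size factors turned that split round, to 1178 higher and 570 lower in place of 480 and 1361, with a median of 0.16. The shift between the scalings leaves the sign of each list median given here as it is. Of those genes 690 were at 0 in 1 of the sums, and with these set at the limit of 3 counts 233 were higher and 1628 lower. Genes with few UMIs after 1.5 ppm and 0 after air can count as lower at that limit, so 1628 is not a count of genes measured lower. Transitional genes were higher in 6 of 12 and lower in 1 (median 1.33; 5 and 1 with a median of 0.84 at that limit). Club genes were lower in 7 of 13 (median -1.60), xenobiotic genes in 8 of 16 (median -1.04) and type 1 genes in 7 of 11. The 1 ppm sum of 1933 UMIs from 2 unlike barcodes, where 1 UMI is 517 CPM, was too small for ratios.

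Among the genes with the highest ratio after 1.5 ppm over air were Fam107b, Blvrb, Slc4a4, Uchl1, Pmepa1, Areg, Tnip3, Actr2 and S100a14. Of these, S100a14 had 2 UMIs in the 8 air barcodes and the others 0. The limit of 3 counts makes Fam107b at least 5.25-fold higher (263 UMIs in 32 of 56 barcodes). Blvrb, biliverdin reductase B, had 248 UMIs in 24 barcodes, and Uchl1, a ubiquitin hydrolase, 231 in 23. The 10 lowest were Rtkn2, a type 1 cell gene, with St3gal4, Sparc, Rgcc, Pde7b, Tmem163, Akap11, Ahnak2, Nckap5 and Liph. Rtkn2 had 7 UMIs in 3 of 56 barcodes after 1.5 ppm and 17 in 2 of 8 after air, a log2 ratio of -5.23. All 51 air UMIs of St3gal4, a sialyltransferase, came from 1 barcode, and without the deepest barcode of each library its log2 ratio of -4.86 turned to 0.35.

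Against the other kept barcodes of the same library, the genes most restricted to epithelial barcodes were Tinagl1, Lmo7, F3, Krt7, Lhfp, Cxcl5, Cavin3, Cnksr1, Clic5, Irx1, Ptpn14, Vsig2, Sfta3-ps, Gprc5a and Hspb1. This is the contrast the rule used, so the values are a description. Lmo7 stood at 4660, 2069 and 1641 CPM in the air, 1 ppm and 1.5 ppm libraries, against at most 0.970 CPM in other barcodes. F3 was at 528, 0 and 1205 CPM. The keratin Krt7 was at 198, 517 and 479 CPM. Cxcl5, a neutrophil-attracting chemokine, came from 9 barcodes in all, and of its UMIs 71 lay in 4 barcodes past none of the cuts and 45 in 1 club barcode without the mucosal list, all after 1.5 ppm.

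The 9-gene rule passed over small barcodes. A further 18, 16 and 39 kept barcodes of the air, 1 ppm and 1.5 ppm libraries had a lineage list at 2% or more (club, mucosal, type 2) or 0.5% or more (ciliated, type 1) without meeting the rule. They had medians of 919, 858 and 1220 UMIs and of 1 UMI from the 9 genes. Together with the epithelial barcodes they made 0.747% (0.489 to 1.09%), 0.803% (0.477 to 1.27%) and 1.44% (1.17 to 1.76%) of kept barcodes, and the interval of the 1.5 ppm library then lay above that of air but overlapped that of 1 ppm. Mucosal secretory barcodes were then 0.460%, 0.535% and 0.471%. Of 18, 15 and 62 barcodes with the club list at 2% or more, 2, 3 and 30 lacked the mucosal list. Of these, 1, 3 and 5 were outside the rule, and 1 of the 2 after air was the barcode with both club and ciliated lists. These wider counts were chosen after the values were seen.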

How the data were processed

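The 3 libraries, 1 pool of lavage cells per exposure, were made with a 10x Genomics 3′ v3.1 kit, per the labels' protocols. The matrices deposited by the authors hold raw UMI counts for each gene in each barcode. The file headers name Cell Ranger 8.0.0, and the genome was GRCm39 (mm39), per the submitters' processing notes. No source used here says if intronic reads entered the counts. The libraries held 5307, 3233 and 7269 barcodes and 59359742, 42825676 and 95403078 UMIs in the order air, 1 ppm and 1.5 ppm. The filter on genes, UMIs and mitochondrial share kept 65.6%, 69.3% and 90.5% of the barcodes.

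UMIs of epithelial barcodes were summed per library or group and given as CPM. Shares carry exact binomial (Clopper-Pearson) 95% intervals and ratios of 2 counts exact conditional intervals, all for counting error only. A gene was counted as differing at 2-fold or more, with at least 20 UMIs over both sums and 1 UMI added to each. The limit for a count of 0 is 3 counts over the sum. It is about the highest level that such a count allows, so a ratio set at it is a bound. Genes at 0 in the smaller sum can then count as lower in the larger one. With 1 library per group there was no test. The code for ratios and intervals was tested on simulated data. The software was Python 3.11.15 with numpy 2.4.6 and scipy 1.17.1, pandas 2.3.3 for tables and matplotlib 3.10.9 for plots.

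The epithelial barcodes, 32 gene lists and markers were chosen with earlier results of these data known. Named genes are the selecting and label genes, up to 5 per list by level, the 15 with the highest ratio over other barcodes, and the 10 highest and 10 lowest ratios of 1.5 ppm over air. Some genes that this rule picks are not reported here. Genes named for a contrast between groups were chosen after their values were seen. Ratios against the 1 ppm library were planned but not made, because its epithelial sum was too small. No doublet caller was run, and the macrophage list and the barcodes with 2 lineage lists are given instead.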

Additional observations from a re-analysis of the deposited data

Results flagged for a closer look

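Barcodes above 10% mitochondrial UMIs were outside the rule, yet some met its 9-gene part. With at least 500 UMIs and 300 genes they were 2 of 1594 such barcodes after air, 0.125% (exact binomial interval 0.0152 to 0.452%). They were 7 of 842 after 1 ppm ozone, 0.831% (0.335 to 1.71%), and 4 of 454 after 1.5 ppm, 0.881% (0.241 to 2.24%). Both ozone values stood above the air value, which is why they are listed, and the intervals overlapped that of air. Of the 7 after 1 ppm, 5 carried the club list and 4 the mucosal list, and of the 4 after 1.5 ppm, 4 and 2 did. No test was made between single libraries.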

How the results depend on the processing

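Of the shares and counts recomputed under other settings, 138 stayed within their counting interval or within 1.5 times, and 27 did not. The epithelial share was 0.489%, 0.357% and 0.775% in the air, 1 ppm and 1.5 ppm libraries when barcodes were thinned to 500 UMIs, with overlapping intervals, and 0.747%, 0.803% and 1.44% with barcodes outside the rule that carry a lineage list, a setting chosen after seeing the data. With at least 5 UMIs and 0.2% from the selecting genes, it was 0.517% after 1.5 ppm. Club barcodes without the mucosal list were then 0.228% of the 1.5 ppm library, and those with it 0.0287%, 0 and 0.0304% of the 3 libraries. Adding the outside barcodes made the group with it 0.460%, 0.535% and 0.471%, and a minimum of 1000 UMIs made it 0 after 1 ppm.

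Shares of the 1 ppm library rest on 2 barcodes. With at least 1000 UMIs 1 remained, which put the club and mucosal lists at 0 and the ciliated, type 1 and transitional lists at 100%. The transitional list there was at 100% with lists at 2 UMIs and at 0 with 5 UMIs and 0.2%, a setting that gave 30.4% for the type 1 list and 66.1% for the transitional list after 1.5 ppm. Genes 2-fold or more apart between 1.5 ppm and air numbered 1178 higher and 570 lower with median-of-ratios scaling, while lower ones numbered 375 with at least 50 UMIs and 8779 with no filter. Without the deepest barcode of each library St3gal4 turned to 0.35, and Tmem163 and Pde7b came to -0.12 and -0.51. Of 180 values of single genes 163 kept their value within counting error and 1 reversed. The causes were not tested.

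With 1 library per group none was left out, and no value here has an error between animals. No paired analysis was possible because each group is 1 library and no result comes from a test.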

Other observations

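Basal cell genes were few in the epithelial barcodes, and their list was carried by 2 of 66, against 0.0572% of the other kept barcodes. It stood at 198 CPM after air and 77.6 CPM after 1.5 ppm, against 4.91 and 3.40 CPM in the other barcodes. Krt5, Krt14 and Trp63, which define basal progenitors of the larger airways, had 0 UMIs in all 66. Krt15 had 6 after air and 33 after 1.5 ppm, and Bcam 3 and 20. Cycling genes were low in most epithelial barcodes, and Mki67 had 1 UMI after air, 0 after 1 ppm and 9 after 1.5 ppm. The G2 and M phase list was carried by 3 of 66, 4.55% (0.947 to 12.7%), against 11.1% of the other kept barcodes, a share within that interval. It held 48 UMIs in 1 club barcode and 7 in 1 ciliated-list barcode after 1.5 ppm, and 15 in the surfactant barcode after air. The S phase list was carried by 1 of 66 epithelial barcodes, against 14.7% of the other kept barcodes, at unequal depth.

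Growth factors and chemokines were divided over the groups, and these genes were chosen after their values were seen. Areg had 187 UMIs after 1.5 ppm, of which 99 lay in 9 barcodes past none of the list cuts, 26 in 6 club barcodes without the mucosal list and 62 in 1 surfactant barcode. Nrg1, another ligand of the EGF receptor family, had 211 UMIs in 21 barcodes after 1.5 ppm and 18 in 2 after air, and 0 in the 14 barcodes with the mucosal list. Cxcl17, a chemokine of mucosal surfaces, had 78 UMIs in 10 of those 14 barcodes and 0 in the 16 barcodes past none of the cuts. Sprr1a, a cornified envelope gene of squamous cells, had 76 UMIs in 6 barcodes after 1.5 ppm and 0 in the other libraries' epithelial barcodes.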
